A study of Homo sapiens with 12 samples.

Results

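The heat shock chaperones of the cytosol and mitochondria were followed as a set of 44 genes in a pair of human liver cancer cell lines, each treated with lenvatinib or with solvent. The genes were found by their symbols in the gene table, and all 44 were present among its 40825 rows. HSPA14 stood on more than 1 row, and its row of highest total count was used. Every one of the 44 was also among the 15587 rows abundant enough to be tested, so none was lost to the filter on low values.

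Huh7 and PLC/PRF/5 are established lines from human hepatocellular carcinoma, and both are wild type per the labels. Lenvatinib, an oral inhibitor of receptor tyrosine kinases such as the VEGF and FGF receptors, was given to each line, and dimethyl sulfoxide (DMSO) was its control. The series' title concerns syntaxin-6, autophagy and resistance to lenvatinib. RNA was sequenced from 12 libraries in 4 groups of 3, namely Huh7 with DMSO, Huh7 with lenvatinib, PLC/PRF/5 with DMSO and PLC/PRF/5 with lenvatinib. The sources used here give neither a dose nor a time of exposure. Nothing in them says that replicates were grown apart, so p-values reflect only how these libraries scatter, which may be technical.

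Chaperones bind proteins that are not yet folded or have lost their fold. Hsp70 proteins bind short exposed stretches with the help of J-domain proteins, which bring clients and trigger ATP hydrolysis, and of exchange factors such as the Hsp110 and BAG proteins, which release them. Hsp90 acts later on clients that include many kinases and steroid receptors, guided by co-chaperones, while the barrel-shaped chaperonins, CCT in the cytosol and HSPD1 with HSPE1 in mitochondria, enclose proteins as they fold. Heat shock factor 1 (HSF1) switches on many of these genes when unfolded protein accumulates, through heat shock elements, runs of GAA and TTC units facing opposite ways.

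Total counts per library ran from 70236175 to 75820318. The 44 genes held between 804 and 278170 counts in any library, and counting error at the lowest of these is 3.53%. Transcripts of the mitochondrial genome made up 5.57% to 5.69% of a Huh7 DMSO library, 6.33% to 6.88% of a treated one, and in PLC/PRF/5 10.3% to 10.6% and 11.0% to 11.3%. The summed level of 9 hepatocyte markers ran from 5014 to 5162 CPM (counts scaled to the library total) in Huh7 with DMSO and from 6273 to 9701 CPM with lenvatinib. In PLC/PRF/5 it ran from 6787 to 7356 CPM with DMSO and from 4779 to 5024 CPM with lenvatinib, although ALB stood at only 7.07 to 12 CPM and TTR at 0.125 to 0.754 CPM in that line. The markers did not move together. With lenvatinib in Huh7, AFP (511 to 522, then 332 to 414 CPM) and TTR (148 to 167, then 48.1 to 59.7 CPM) were lower. ALB, APOA1, APOB, FGB, HNF4A and TF were higher there. In PLC/PRF/5, APOB (4790 to 5300, then 3010 to 3390 CPM) and FGB were lower. SERPINA1 (426 to 523, then 629 to 732 CPM), ALB, APOA1 and TF were higher. Groups of the other hepatocyte markers overlapped. Of the markers of other cell types, the leukocyte genes PTPRC and CD3E and the endothelial genes VWF and CDH5 were at or under 0.311 CPM. The 4 leukocyte markers summed to 1.07 to 4.03 CPM in Huh7, and in PLC/PRF/5 to 38.4 to 48.0 CPM with DMSO and 26.6 to 35.1 CPM with lenvatinib, mostly from CD68. The 3 endothelial markers summed to 3.90 to 10.8 CPM, mostly from PECAM1. Summed markers of fibroblasts lay at 37.3 to 40.6 CPM in Huh7 with DMSO, 25.2 to 32.7 CPM with lenvatinib, and 5.07 to 13.9 CPM in PLC/PRF/5. The part of these shifts in the chaperone results was not tested.

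Promoter sequences were available in RefSeq (GRCh38.p14) for 40 of the 44 genes, in 56 windows from 250 bases before to 50 bases after an annotated start. A heat shock element of 2 units was searched as GAANNTTC or TTCNNGAA, and one of 3 units as GAANNTTCNNGAA or TTCNNGAANNTTC, which contains a 2-unit match by construction; each pair covers both strands. The 2-unit form was in 21 of the 56 windows (37.5%), against 13.5% of all 35116 windows. The 3-unit form was in 7 of 56 (12.5%), against 0.49%. The 7 genes with 3 units are shown. With lenvatinib 5 of them were called higher in Huh7, as were 11.4% of all genes tested. In PLC/PRF/5 HSPD1 and CHORDC1 were called higher, HSPA8 was called lower and the other 4 were not called. Of all genes tested, 9.01% were called higher and 11.1% lower in that line. Capitals mark the GAA and TTC units with the bases between them, the reading direction is that of the gene, and each stretch runs from 10 bases before the first 3-unit match to 10 bases after the last, apart from HSPD1, whose window begins 5 bases before its first match, and HSPA8, for which the 250 bases before the start are given. The last unit shown for HSP90AA1 opens a 2-unit match that runs past the stretch.
HSP90AA1, chr14:102087110-102087142, minus strand: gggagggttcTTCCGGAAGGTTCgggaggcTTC
HSP90AB1, chr6:44247768-44247853, plus strand: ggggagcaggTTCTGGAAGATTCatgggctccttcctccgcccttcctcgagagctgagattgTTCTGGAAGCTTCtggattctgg
HSPA8, chr11:123062137-123062386, minus strand: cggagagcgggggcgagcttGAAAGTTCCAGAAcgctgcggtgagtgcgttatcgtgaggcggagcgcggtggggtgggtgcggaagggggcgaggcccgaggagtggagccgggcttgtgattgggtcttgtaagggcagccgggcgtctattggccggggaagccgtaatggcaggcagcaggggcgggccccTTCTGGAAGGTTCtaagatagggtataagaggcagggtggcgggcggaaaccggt
HSPD1, chr2:197500058-197500090, minus strand: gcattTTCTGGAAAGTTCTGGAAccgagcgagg
DNAJA1, chr9:33025266-33025298, plus strand: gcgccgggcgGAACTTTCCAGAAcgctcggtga
DNAJB6, chr7:157336863-157336895, plus strand: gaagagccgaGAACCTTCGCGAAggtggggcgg
CHORDC1, chr11:90223077-90223119, minus strand: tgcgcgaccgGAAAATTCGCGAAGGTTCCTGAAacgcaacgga
HSPD1 carries 2 overlapping matches and CHORDC1 carries 3, in unbroken runs of alternating units. The HSPD1 run also lies 294 bases from the RefSeq start of HSPE1, its neighbour on the other strand, in a stretch that GENCODE 29 places inside both genes. The DNAJA1 match begins at base 4 from the start used for its window, and the others lie before the start of theirs. By GENCODE 29 every one of these matches lies inside its gene, downstream of the farthest annotated start. Counted by gene, 20 of the 40 members with a window had a 2-unit match (50.0%), as did 16.2% of all genes with a window. In Huh7 it was in 8 of the 9 genes called higher, all but DNAJB2, in 2 of the 7 called lower that had a window, CCT2 and CCT4, and in 10 of the 24 not called. By the PLC/PRF/5 calls no such contrast was seen, with 3 of 6 higher, 2 of 4 lower and 15 of 30 not called. These counts depend on calls near the threshold. HSP90AA1, HSP90AB1, HSPA1A and HSPA1B, all with a match, were not called in PLC/PRF/5 but were called higher there in some other settings. In Huh7 the calls of HSPB1 and HSPD1 were lost without any of 10 and any of 11 of the 12 libraries. Neither a contrast between the call groups in Huh7 nor a difference between the lines in the motif is therefore claimed. Such matches are letters in a window and say nothing of whether a factor was bound.

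Under DMSO the levels of the 44 genes spanned a wide range in both lines. They are given as FPKM (fragments per kilobase of gene length, scaled to the library), so that genes of unlike length can be compared. Such ranks depend on the length used. The length implied by FPKM and counts was long for some genes, such as 17541 bases for DNAJB6 and 8303 bases for BAG1. HSP90AB1, the constitutive cytosolic Hsp90, was highest at 561 ± 3.24 FPKM in Huh7 and 768 ± 1.42 FPKM in PLC/PRF/5 (SD, n = 3). HSP90AA1, the inducible cytosolic Hsp90, followed at 359 ± 28.8 and 313 ± 9.29 FPKM. The constitutive Hsp70 HSPA8 came next at 224 ± 21.8 and 255 ± 33.7 FPKM, and the mitochondrial chaperonin HSPD1 after it at 183 ± 4.53 and 210.0 ± 3.24 FPKM. The lowest PLC/PRF/5 library for HSPA8, at 219 FPKM, lay just above the highest for HSPD1, at 214 FPKM, and in Huh7 HSPD1 did not differ beyond its spread from CCT4 at 181 ± 5.82 FPKM. BAG1 was lowest in both lines, at 1.54 ± 0.231 and 1.90 ± 0.266 FPKM. HSF1 itself was at 5.23 ± 0.591 and 7.60 ± 1.40 FPKM.

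**Figure D1:**
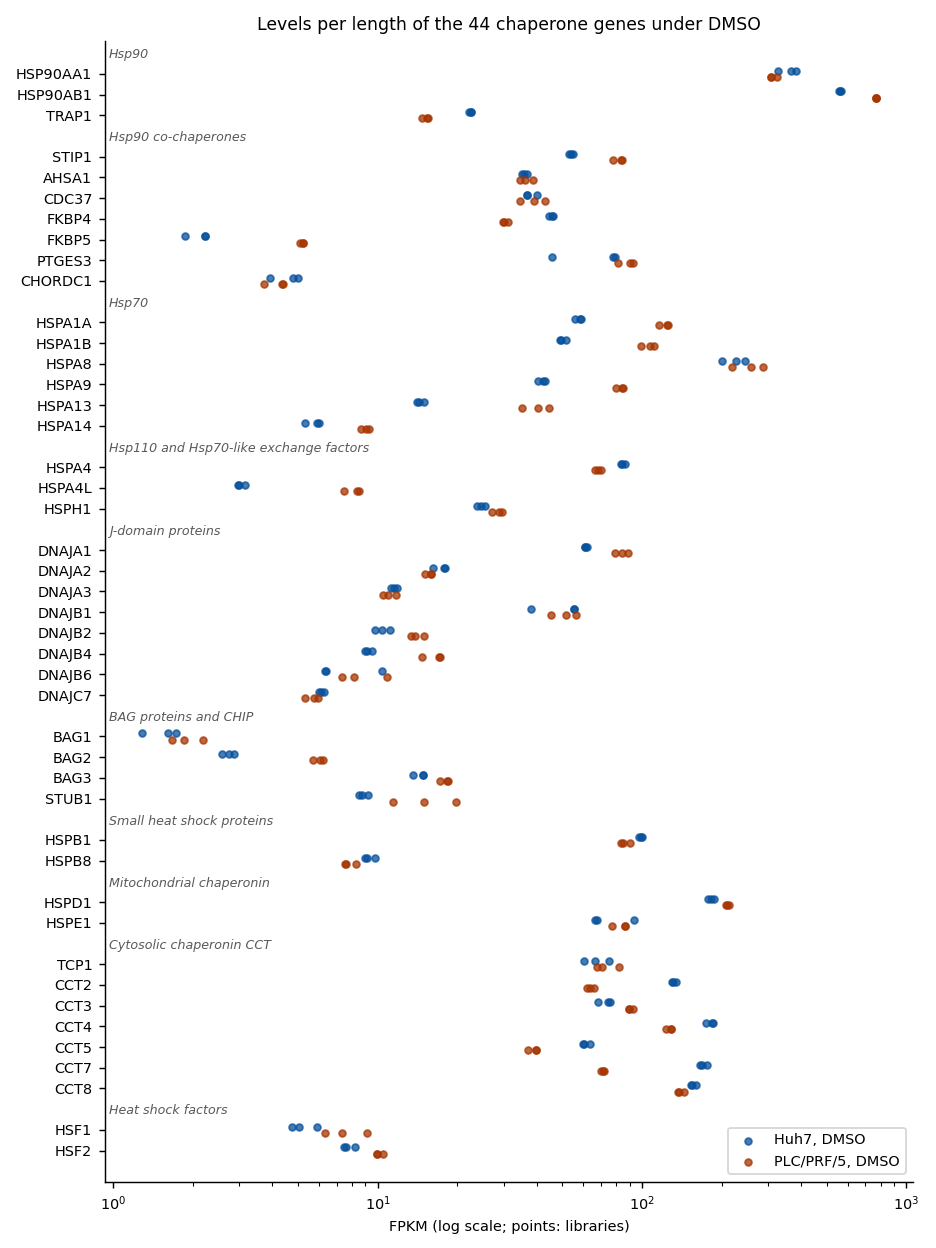
Levels of the 44 chaperone genes in the DMSO libraries, in FPKM on a log axis, with 1 point per library and genes ordered by role. HSP90AB1 and HSP90AA1 lie farthest right and BAG1 farthest left in both lines.

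With lenvatinib, members were called in both directions in each line. In Huh7, 9 of 44 genes were called higher (20.5%) and 8 lower (18.2%), against 11.4% and 13.3% of all genes tested. Fitted on the Huh7 libraries alone, 5 were called higher (11.4%), beside 10.4% of all genes, a share near the background, and DESeq2 called 13 higher. In PLC/PRF/5, 6 were called higher (13.6%) and 4 lower (9.09%), against 9.01% and 11.1% of all genes, so those shares lie near the background. The median log2 fold change of the members was 0.02 in both lines, beside 0.00 in Huh7 and -0.01 in PLC/PRF/5 over all genes. A share of counts, unlike a median, weighs abundant members most. The share of all counts that fell on the 44 genes was 1.44 ± 0.0340% under DMSO and 1.67 ± 0.160% with lenvatinib in Huh7. In PLC/PRF/5 it was 1.51 ± 0.0220% and 1.68 ± 0.0100% (SD, n = 3), and the cause of these shifts was not tested. These shares are of raw library totals, whereas the changes are scaled by TMM factors. In bulk RNA, fewer cells of a kind and less RNA per cell cannot be told apart. Calls are edgeR quasi-likelihood tests at an adjusted p of 0.05 over all genes. A change is a log2 fold change ± its standard error, and levels by library are scaled CPM, in the order of replicates 1, 2 and 3.

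The split in PLC/PRF/5 depended on the scaling. With library totals alone in place of TMM factors, 10 members were called higher and 1 lower there, and 63.1% of all called genes were higher in place of 44.8%. Leaving out Huh7 lenvatinib replicate 2 or 3, which enter the shared estimate of spread, raised the members called higher in PLC/PRF/5 to 10. The members called lower there fell to 1 without PLC/PRF/5 DMSO replicate 3 or lenvatinib replicate 2, and to 2 without Huh7 DMSO replicate 3 or PLC/PRF/5 lenvatinib replicate 1 or 3.

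**Figure D2:**
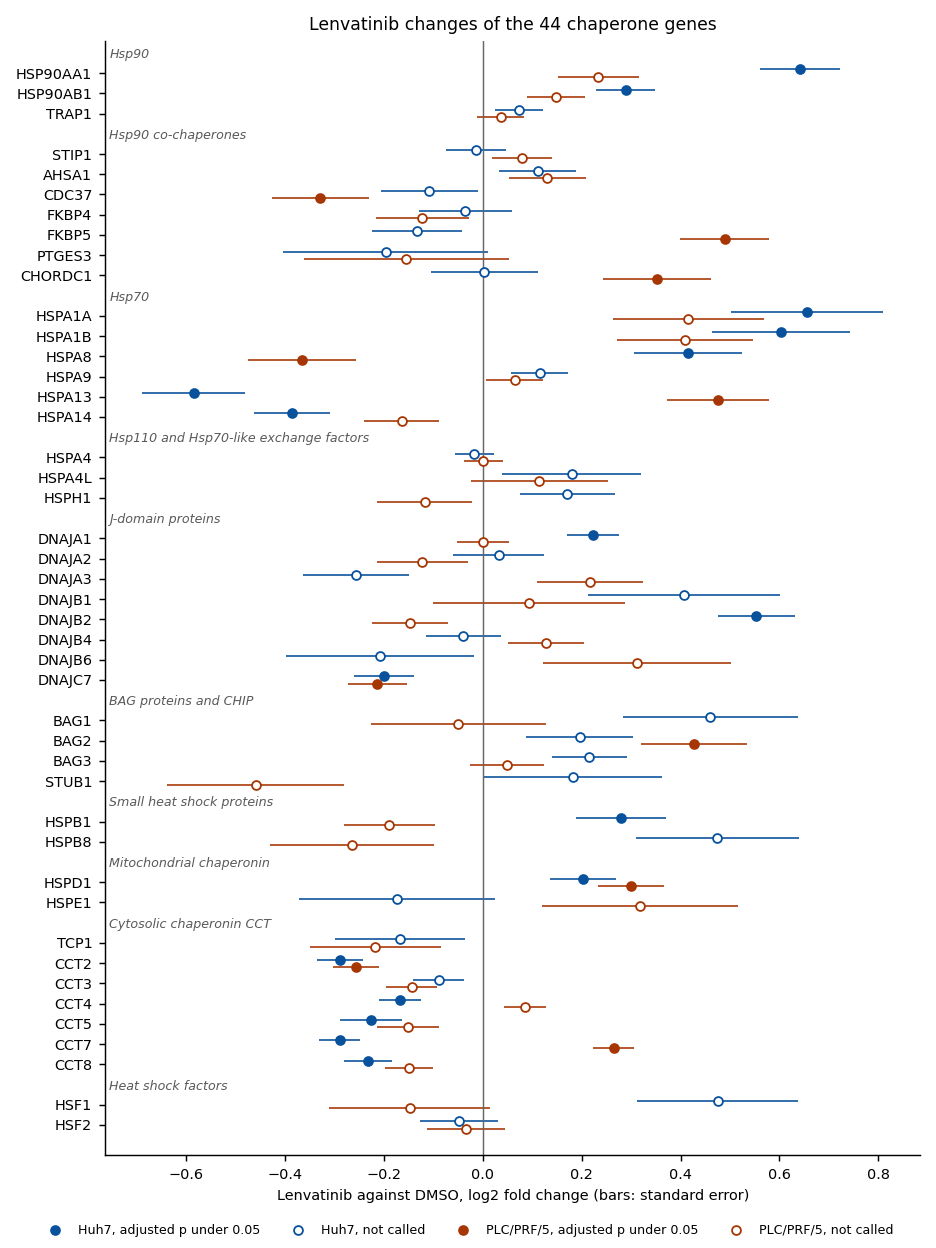
Log2 fold change of each of the 44 genes with lenvatinib against DMSO, with its standard error, in Huh7 and PLC/PRF/5, ordered by role; filled points were called at an adjusted p under 0.05. The Hsp90 genes and the inducible Hsp70 genes lie to the right of 0 and most CCT subunits to the left, while HSPA8, HSPA13 and CCT7 lie on opposite sides of 0 in the 2 lines.

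Both cytosolic Hsp90 genes rose in Huh7. HSP90AA1 stood at 2234, 2003 and 2338 CPM with DMSO and at 3321, 3061 and 3876 CPM with lenvatinib, with every treated library above every control. Its change was 0.64 ± 0.08 (adjusted p = 2.34e-04), or 1.56-fold. HSP90AB1 stood at 1987, 2023 and 2005 CPM with DMSO and at 2468, 2197 and 2683 CPM with lenvatinib, again with no overlap, a change of 0.29 ± 0.06 (adjusted p = 0.00452). HSP90AA1 in PLC/PRF/5 was at 1886, 1969 and 1865 CPM with DMSO and 2331, 2236 and 2162 CPM with lenvatinib. HSP90AB1 was at 2749, 2743 and 2732 CPM and at 2943, 3121 and 3053 CPM there. The groups were apart for both genes, yet the changes of 0.23 ± 0.08 (adjusted p = 0.0668) and 0.15 ± 0.06 (adjusted p = 0.103) were not called. For HSP90AA1 in PLC/PRF/5 the adjusted p ran from 0.00721 to 0.177 over the other settings, and it was called without Huh7 lenvatinib replicate 2 or 3 (adjusted p = 0.0361 and 0.0195). TRAP1, the Hsp90 of mitochondria, was not called in either line, at 0.07 ± 0.05 and 0.04 ± 0.05. HSP90AB1 was called in PLC/PRF/5 without the same libraries (adjusted p = 0.0145 and 0.0311). Of these 3 genes, 2 had an unadjusted p under 0.05 in PLC/PRF/5, DESeq2 called 1, HSP90AA1, and limma called HSP90AA1 and HSP90AB1.

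Of the 7 co-chaperones of Hsp90, edgeR called 0 in Huh7, 0 had an unadjusted p under 0.05, DESeq2 called 0, and their changes ran from -0.20 to 0.11. They comprise STIP1, which links Hsp70 to Hsp90, AHSA1, which speeds its ATPase, CDC37, which brings kinases, the immunophilins FKBP4 and FKBP5, the p23 protein PTGES3, and CHORDC1. Without Huh7 lenvatinib replicate 2, AHSA1 was called higher in Huh7 (0.20, adjusted p = 0.0489). With lenvatinib in PLC/PRF/5, FKBP5, a co-chaperone of steroid receptors, stood at 65.1, 66.5 and 66.1 CPM with DMSO and at 91.7, 91.5 and 94.1 CPM with lenvatinib, with groups far apart. It rose by 0.49 ± 0.09 (adjusted p = 0.00390), or 1.40-fold. In Huh7 FKBP5 was at 23.8, 28.5 and 28.3 CPM with DMSO and at 23.2, 22.6 and 27.8 CPM with lenvatinib, overlapping groups with a change of -0.13 ± 0.09 that was not called. CHORDC1 rose in PLC/PRF/5 by 0.35 ± 0.11 (adjusted p = 0.0429) and CDC37 fell there at -0.33 ± 0.10 (adjusted p = 0.0376). Those calls rest on all libraries: CHORDC1 was lost without any of 8 of the 12 and CDC37 without any of 7, with adjusted p of up to 0.141 and 0.126, while their changes stayed between 0.28 and 0.40 and between -0.40 and -0.25. PTGES3 had 1 Huh7 DMSO library, replicate 2, at 187 CPM beside 316 and 324 CPM.

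The heat-inducible Hsp70 genes HSPA1A and HSPA1B rose in Huh7. HSPA1A, at chr6:31815464-31817946, stood at 161, 170.0 and 167 CPM with DMSO and at 269, 187 and 329 CPM with lenvatinib. HSPA1B, at chr6:31827735-31830255, stood at 147, 150 and 156 CPM and at 232, 172 and 284 CPM. Lenvatinib replicate 2 was the lowest treated library for both and still lay above every control. Their changes were 0.66 ± 0.15 (adjusted p = 0.0106) and 0.60 ± 0.14 (adjusted p = 0.00946). Fitted on the Huh7 libraries alone neither was called (adjusted p = 0.0712 and 0.0596). HSPA1A in PLC/PRF/5 stood at 362, 356 and 334 CPM with DMSO and at 487, 451 and 466 CPM with lenvatinib, and HSPA1B at 324, 333 and 297 CPM and at 431, 406 and 429.6 CPM. Again no control reached a treated library, but the changes of 0.42 ± 0.15 (adjusted p = 0.0851) and 0.41 ± 0.14 (adjusted p = 0.0627) were not called; both were called without Huh7 lenvatinib replicate 2 or 3, with adjusted p of at most 0.0237 and 0.0133, at changes of 0.41 to 0.42. Fitted on the PLC/PRF/5 libraries alone both were called as well (adjusted p = 0.00205 and 0.00283), as they were by DESeq2 (0.0340 and 0.0218) and by limma on log2(FPKM + 1) (0.0489 and 0.0340). The genes are near-identical and reads may be split between them; summed, they changed by 0.63 in Huh7 (adjusted p = 0.00997) and by 0.41 in PLC/PRF/5 (adjusted p = 0.0732).

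HSPA8, the constitutive Hsp70 whose promoter is given above, went opposite ways in the 2 lines. In Huh7 it stood at 1418, 1173 and 1316 CPM with DMSO and at 1798, 1540 and 1873 CPM with lenvatinib. The PLC/PRF/5 libraries stood at 1669, 1271 and 1502 CPM with DMSO and at 1238, 1096 and 1115 CPM with lenvatinib. Treated libraries were all above the controls in Huh7 and all below them in PLC/PRF/5. The changes were 0.42 ± 0.11 (adjusted p = 0.0188) and -0.37 ± 0.11 (adjusted p = 0.0396). Each call alone was fragile: that in Huh7 was lost without Huh7 DMSO replicate 2 or lenvatinib replicate 1 or 3 (adjusted p of 0.0581 to 0.0714). That in PLC/PRF/5 was lost without Huh7 DMSO replicate 3, Huh7 lenvatinib replicate 1, PLC/PRF/5 DMSO replicate 1 or 3, or PLC/PRF/5 lenvatinib replicate 2 or 3 (0.0529 to 0.140), and with library totals alone (-0.29, adjusted p = 0.104). Over all settings, the adjusted p ran from 0.00158 to 0.0714 in Huh7 and from 0.00960 to 0.140 in PLC/PRF/5.

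HSPA13, a short Hsp70 relative that associates with microsomes, at chr21:14371115-14383484, did the reverse. It stood at 69.8, 72.0 and 74.5 CPM in Huh7 with DMSO and at 50.8, 40.1 and 53.3 CPM with lenvatinib. Among PLC/PRF/5 libraries it was at 176, 201 and 221 CPM with DMSO and at 281, 273 and 277 CPM with lenvatinib. No groups overlapped, and the changes were -0.58 ± 0.10 (adjusted p = 0.00207) in Huh7 and 0.48 ± 0.10 (adjusted p = 0.00886) in PLC/PRF/5. HSPA14, which works at the ribosome, fell in Huh7 at -0.38 ± 0.08 (adjusted p = 0.00401) and was at -0.16 ± 0.08 in PLC/PRF/5, not called. A second row of the same symbol gave -0.54 (adjusted p = 0.00453) and -0.62 (adjusted p = 0.00292), so the result for HSPA14 in PLC/PRF/5 depends on the row. HSPA9, the mitochondrial Hsp70, was called in neither line, at 0.12 ± 0.06 and 0.06 ± 0.06.

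**Figure D3:**
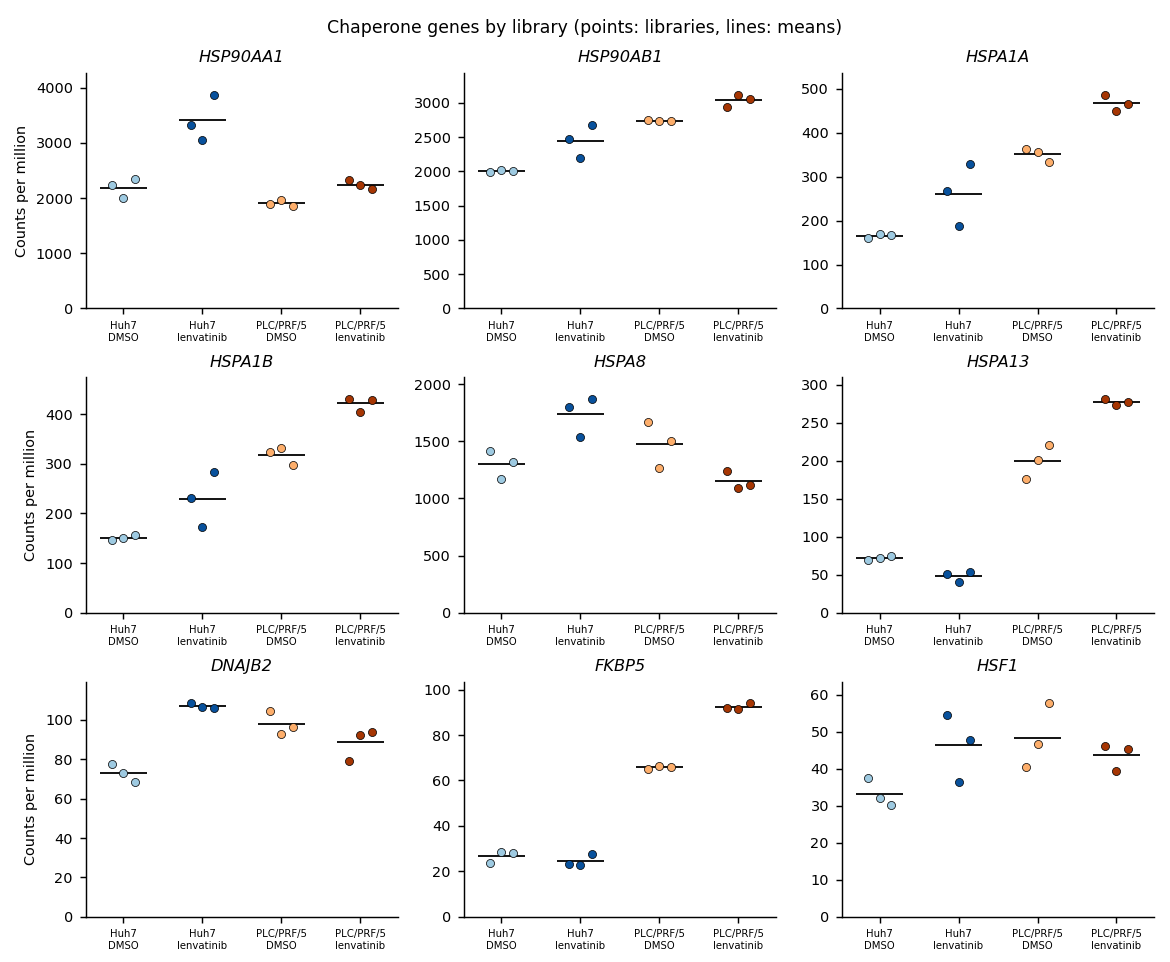
Scaled CPM of 9 chaperone genes in each of the 12 libraries, with points for libraries, lines for group means and axes that start at 0. HSPA8 is higher with lenvatinib in Huh7 and lower in PLC/PRF/5, HSPA13 does the reverse, and FKBP5 stands apart with lenvatinib in PLC/PRF/5.

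The exchange factors of the Hsp110 class, HSPH1, HSPA4 and HSPA4L, were called in neither line, with changes between -0.12 and 0.18, 0 unadjusted p under 0.05 and 0 calls by DESeq2. Of the 8 J-domain proteins, 2 rose and 1 fell in Huh7. DNAJB2, which carries ubiquitin-binding motifs, at chr2:219279267-219286900, stood at 77.8, 72.8 and 68.4 CPM with DMSO and at 109, 107 and 106 CPM with lenvatinib. PLC/PRF/5 libraries held 105, 92.7 and 96.6 CPM with DMSO and 79.1, 92.5 and 93.9 CPM with lenvatinib. The Huh7 groups were well apart (0.55 ± 0.08, adjusted p = 4.48e-04), and those of PLC/PRF/5 overlapped (-0.15 ± 0.08, adjusted p = 0.216). DNAJA1, a main partner of cytosolic Hsp70, rose in Huh7 by 0.22 ± 0.05 (adjusted p = 0.00973) and stood at 0.00 ± 0.05 in PLC/PRF/5. DNAJC7, which binds both Hsp70 and Hsp90, fell in both lines, at -0.20 ± 0.06 (adjusted p = 0.0337) and -0.21 ± 0.06 (adjusted p = 0.0307). The Huh7 call of DNAJC7 was lost without any 1 of the 6 Huh7 libraries (adjusted p of 0.0516 to 0.110) and the other without PLC/PRF/5 DMSO replicate 2 or 3 or lenvatinib replicate 1 or 2 (0.0760 to 0.108). DNAJB1, the classical heat-inducible J-domain protein, was at 0.41 ± 0.19 in Huh7 (adjusted p = 0.164) with overlapping groups. DNAJB6, whose promoter holds 3 units, had 1 Huh7 DMSO library, replicate 3, at 186 CPM beside 114 CPM in both others, and was called in neither line.

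Of the BAG proteins and STUB1, the ubiquitin ligase CHIP that marks chaperone clients, edgeR called 0 in Huh7, where their changes ran from 0.18 to 0.46. There, 2 of the 4 had an unadjusted p under 0.05 and were called by DESeq2, BAG1 and BAG3. BAG2, an inhibitor of CHIP, rose in PLC/PRF/5 by 0.43 ± 0.11 (adjusted p = 0.0180), from 45.7, 48.0 and 49.4 CPM to 55.9, 60.1 and 76.2 CPM, a call lost without PLC/PRF/5 DMSO replicate 1 (0.40, adjusted p = 0.0596). BAG3, which guides clients to autophagy, was at 0.22 ± 0.08 in Huh7 (adjusted p = 0.0613) and at 0.05 ± 0.08 in PLC/PRF/5. STUB1 was at -0.46 ± 0.18 in PLC/PRF/5 (adjusted p = 0.1001), where DMSO replicate 1 stood at 55.1 CPM and the other DMSO libraries at 31.9 and 41.4 CPM. The small heat shock protein HSPB1, which holds unfolded proteins in solution, rose in Huh7 by 0.28 ± 0.09 (adjusted p = 0.0471) from 190 to 195 CPM with DMSO to 208 to 277 CPM. That call was lost without any of 10 of the 12 libraries (adjusted p of up to 0.114, changes of 0.14 to 0.36). HSPB8, the partner of BAG3, was at 0.47 ± 0.17 in Huh7 (adjusted p = 0.0599), and it was called without Huh7 lenvatinib replicate 2 (0.64, adjusted p = 0.00837).

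The mitochondrial members were HSPD1, HSPE1, HSPA9, TRAP1 and the J-domain protein DNAJA3. HSPD1 was called in both lines and rose in both. The other 4 were not called, but DNAJA3 was lower in Huh7 without lenvatinib replicate 2 (-0.38, adjusted p = 0.0148) and higher in PLC/PRF/5 when that line was fitted alone (0.23, adjusted p = 0.0439), and the difference of its changes between the lines, 0.47 ± 0.15 (adjusted p = 0.0625), was called by DESeq2 (0.46, adjusted p = 0.0364). HSPD1 stood at 902, 928 and 880.1 CPM in Huh7 with DMSO and at 1048, 917 and 1156 CPM with lenvatinib. The PLC/PRF/5 values were 1059, 1021 and 1030 CPM with DMSO and 1263, 1281 and 1284 CPM with lenvatinib. The groups overlapped in Huh7 (0.20 ± 0.07, adjusted p = 0.0471), where the call was lost without any of 11 of the 12 libraries (adjusted p of up to 0.134, changes of 0.12 to 0.29), and were apart in PLC/PRF/5 (0.30 ± 0.07, adjusted p = 0.0101). HSPE1, its lid, was at -0.17 ± 0.20 and 0.32 ± 0.20, not called, with 1 PLC/PRF/5 lenvatinib library, replicate 1, at 301 CPM beside 184 and 195 CPM. HSPD1 and HSPE1 share exonic sequence on opposite strands, and their reads cannot be told apart without strand.

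The CCT chaperonin, which folds actin and tubulin, was the role group with the highest share called lower in Huh7. Of its 7 subunit genes in the set, 5 fell in Huh7, against 13.3% of all genes called lower, and the changes of all 7 lay below 0 there under every setting tried. They ran from -0.29 to -0.09. A further subunit gene outside the set, CCT6A, was not called in Huh7 (-0.09 ± 0.06, adjusted p = 0.3495). CCT7, at chr2:73233420-73253021, stood at 709, 760 and 729 CPM in Huh7 with DMSO and at 613, 570.4 and 616 CPM with lenvatinib. Its PLC/PRF/5 levels were 307, 300.2 and 308 CPM with DMSO and 373, 364 and 363 CPM with lenvatinib. CCT7 thus fell in Huh7 (-0.29 ± 0.04, adjusted p = 5.10e-04) and rose in PLC/PRF/5 (0.27 ± 0.04, adjusted p = 0.00148), with no overlap in either line. CCT2 fell in both, at -0.29 ± 0.05 (adjusted p = 0.00115) and -0.26 ± 0.05 (adjusted p = 0.00354). CCT8, CCT5 and CCT4 fell in Huh7 at -0.23 ± 0.05, -0.23 ± 0.06 and -0.17 ± 0.04 (adjusted p = 0.00525, 0.0222 and 0.0142) and were not called in PLC/PRF/5, at -0.15 ± 0.05, -0.15 ± 0.06 and 0.08 ± 0.04. The call of CCT5 was lost without Huh7 DMSO replicate 2 or lenvatinib replicate 1 or 2 (adjusted p of 0.0632 to 0.0867), and that of CCT4 without Huh7 DMSO replicate 1 or 3 (0.0559 to 0.0570). TCP1 and CCT3 were called in neither line. In PLC/PRF/5, 5 of the 7 had an unadjusted p under 0.05. DESeq2 called CCT2, CCT7 and CCT8 there, and limma called CCT2, CCT4 and CCT7. By edgeR, CCT8 (adjusted p = 0.0518) was called lower in PLC/PRF/5 without Huh7 lenvatinib replicate 2 or 3 (0.0243 to 0.0278). CCT5 was called lower there without Huh7 lenvatinib replicate 3 (0.0493) and CCT3 without replicate 2 (0.0487). The CCT genes held 0.369 ± 0.000991% of the Huh7 counts under DMSO and 0.322 ± 0.0168% with lenvatinib, and 0.263 ± 0.00777% and 0.262 ± 0.00556% in PLC/PRF/5 (SD, n = 3). These shares are of raw library totals, whereas the changes are scaled by TMM factors. On the latter scale the median change of the 7 genes in PLC/PRF/5 was -0.15, with 2 above 0.

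**Figure D4:**
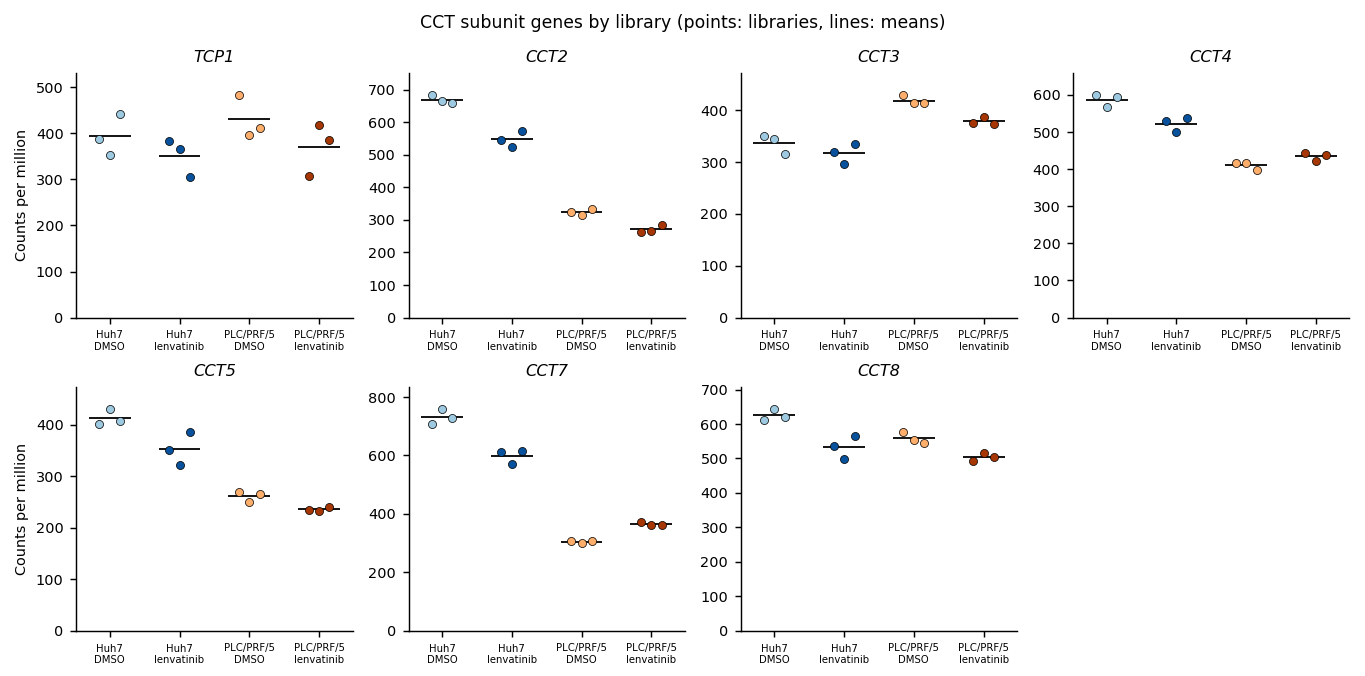
Scaled CPM of the 7 CCT subunit genes in each library, with points for libraries, lines for group means and axes that start at 0. With lenvatinib CCT7 was lower in Huh7 and higher in PLC/PRF/5, while CCT2 was lower with lenvatinib in both lines.

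HSF1, the main regulator of the response, was not called in either line. It stood at 37.5, 32.2 and 30.4 CPM in Huh7 with DMSO and at 54.6, 36.6 and 47.9 CPM with lenvatinib. PLC/PRF/5 libraries stood at 40.6, 46.6 and 57.8 CPM with DMSO and at 46.1, 39.5 and 45.4 CPM with lenvatinib. The groups overlapped in both lines, with changes of 0.48 ± 0.16 (adjusted p = 0.0564) and -0.15 ± 0.16 (adjusted p = 0.587). In Huh7 HSF1 was called without lenvatinib replicate 2 (0.62, adjusted p = 0.0160) and without PLC/PRF/5 DMSO replicate 1 or 3, and its adjusted p ran from 0.0160 to 0.195 over the settings. DESeq2 called it in Huh7 as well (0.49, adjusted p = 0.0195). HSF2, a related factor, was at -0.05 ± 0.08 and -0.03 ± 0.08. Huh7 lenvatinib replicate 2 was the lowest treated library for 6 of the 9 members called higher and for 7 of the 8 called lower, and it had the highest summed hepatocyte markers, 9701 CPM beside 7837 and 6273 CPM. Without it, 13 members were called higher and 7 lower in Huh7.

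The difference between the lenvatinib changes of the lines was tested directly, as PLC/PRF/5 minus Huh7. It was called for 8 of 44 genes, 4 positive (9.09%) and 4 negative (9.09%), against 7.49% and 6.90% of all genes, again shares near the background. HSPA13 differed most, by 1.06 ± 0.15 (adjusted p = 8.60e-04), followed by HSPA8 at -0.78 ± 0.16 (adjusted p = 0.00757) and DNAJB2 at -0.70 ± 0.11 (adjusted p = 0.00173). FKBP5 differed by 0.62 ± 0.13 (adjusted p = 0.00877), CCT7 by 0.55 ± 0.06 (adjusted p = 1.49e-04) and CCT4 by 0.25 ± 0.06 (adjusted p = 0.0164). These 6 were called under every setting planned. HSP90AA1 (-0.41 ± 0.11, adjusted p = 0.0373) and HSPB1 (-0.47 ± 0.13, adjusted p = 0.0351) were also called, but lost the call without any of 9 and any of 8 of the 12 libraries (adjusted p of up to 0.0845 and 0.0776), and neither was called with library totals alone. The inducible Hsp70 genes were not shown to differ, at -0.24 ± 0.22 for HSPA1A and -0.19 ± 0.20 for HSPA1B, although HSPA1A was called without Huh7 lenvatinib replicate 2 (-0.43, adjusted p = 0.0254). The negative calls numbered 8 without Huh7 lenvatinib replicate 2 and 2 without Huh7 DMSO replicate 1 or 2 or PLC/PRF/5 DMSO replicate 1 or 3.

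The lines already differed in these genes under DMSO. Relative to Huh7, 19 of 44 genes were higher in PLC/PRF/5 (43.2%) and 9 lower (20.5%), against 33.9% and 33.1% of all genes. The members' median difference was 0.20, beside 0.01 over all genes. All 6 Hsp70 genes lay above 0, and 5 were called. HSPA13 was higher by 1.47 ± 0.10, HSPA1A by 1.08 ± 0.15 and HSPA1B by 1.07 ± 0.14. HSPA4L, an Hsp110 relative, was higher by 1.41 ± 0.14, from 40.7, 41.2 and 43.4 CPM in Huh7 to 103, 114 and 116 CPM. FKBP5 was higher by 1.29 ± 0.09 and BAG2 by 1.13 ± 0.11. Among CCT subunits 5 of 7 were lower in PLC/PRF/5, CCT7 at -1.26 ± 0.04 and CCT2 at -1.05 ± 0.05. CCT2 stood at 683, 666 and 659 CPM in Huh7 and at 325, 314 and 334 CPM in PLC/PRF/5, groups far apart, while CCT3 was higher in PLC/PRF/5 by 0.31 ± 0.05. Every adjusted p for the genes named with a log2 difference above 1 in size was 1.002e-04 or smaller. The lenvatinib comparisons and this one share the DMSO libraries, so their values stand side by side and no relation between them is given.

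Chaperone genes outside the set were read from further lists. Of 45 other cytosolic chaperones and co-chaperones 38 were tested, and 2 were called higher (5.26%) and 11 lower (28.9%) in Huh7, against 11.4% and 13.3% of all genes, with a median of -0.16 beside 0.00 over all genes. The counts for PLC/PRF/5 were 2 higher (5.26%) and 6 lower (15.8%), against 9.01% and 11.1%, with a median of -0.11. HSPB11, an intraflagellar transport protein named for its resemblance to small heat shock proteins, fell in Huh7 at -0.67 ± 0.07 (adjusted p = 5.25e-05), and the prefoldin subunit VBP1, which hands clients to CCT, at -0.54 ± 0.08 (adjusted p = 8.37e-04). TXNDC9, a modulator of CCT, fell at -0.39 ± 0.07 (adjusted p = 0.00239). PDCL3, another cofactor of CCT, fell in PLC/PRF/5 at -0.67 ± 0.12 (adjusted p = 0.00304), BAG6 at -0.47 ± 0.08 (adjusted p = 0.00237) and the CCT subunit CCT6A at -0.26 ± 0.06 (adjusted p = 0.0116). The Hsp90 cofactor NUDC fell in both lines, at -0.34 ± 0.06 and -0.23 ± 0.06.

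Of 18 other mitochondrial chaperones and proteases, 1 was higher and 1 lower in Huh7 (5.56% each), against 11.4% and 13.3% of all genes. Another 2 calls were higher (11.1%) and 3 lower (16.7%) in PLC/PRF/5, where 9.01% and 11.1% of all genes were called. OMA1, a stress-activated protease of the inner membrane, rose in both lines, by 0.62 ± 0.12 (adjusted p = 0.00332) and 0.82 ± 0.12 (adjusted p = 0.00104). YME1L1, another inner-membrane protease, fell in both, at -0.26 ± 0.04 and -0.22 ± 0.04 (adjusted p = 4.99e-04 and 0.00238). LONP1, the matrix protease, rose in PLC/PRF/5 by 0.26 ± 0.05 and HSCB, a J-domain protein of iron-sulfur cluster assembly, fell there at -0.66 ± 0.17. Of 12 further genes known to be induced by heat, 10 were tested. HSPA6 and CRYAB had a mean FPKM below 0.5 and were not. The tested genes PPID and DNAJA4 also stood among the other cytosolic chaperones and co-chaperones. In Huh7 only ZFAND2A, a regulator of the proteasome, was called, higher by 0.60 ± 0.16 (adjusted p = 0.0187). UBB, a ubiquitin gene, fell in PLC/PRF/5 at -0.35 ± 0.10 (adjusted p = 0.0307) and IER5, a cofactor of HSF1, at -0.44 ± 0.10 (adjusted p = 0.00937). Although edgeR called none higher there, 2 with a positive change had an unadjusted p under 0.05.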

How the data were processed

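RNA-seq of 12 libraries was used, 3 for each of 4 groups taken from the sample titles. Per the labels, mRNA was fragmented, primed with random hexamers and read as single ends on a BGIseq500. HISAT2 and the hg19 build are named in the submitters' processing notes; which program counted, on which annotation and with which strand setting is not stated there. Per the file headers, the authors deposited a raw count and an FPKM column per library, and 12 columns of other libraries were not used. FPKM followed the counts within 1.11% for the 44 genes. Where exons of 2 genes overlap, as for 22 of the 44 by GENCODE 29 (GRCh38, another build than the authors'), reads could be shared.

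Rows whose FPKM averaged 0.5 or more numbered 15587, and their deposited counts were fitted with edgeR 4.0.16 (R 4.3.3), using TMM factors, 1 coefficient per group over all 12 libraries, robust quasi-likelihood F tests and Benjamini-Hochberg adjustment over all rows at 0.05. A standard error is the size of the log2 change divided by the root of F. CPM are scaled by TMM factors. The method was tested on simulated data. Members, role groups, lists and motifs were chosen with earlier results of these data known. Genes are given per library where called with a log2 fold change of at least 0.5 in size under lenvatinib or in the difference, plus HSF1, HSP90AA1, HSP90AB1, HSPA8, HSPA1A and HSPA1B; under DMSO, those called with at least 1; of other lists, up to 4 of smallest adjusted p per line with a mean FPKM of at least 1. The text describes part of the genes this rule names, and 1 result is not reported here. Values by library for HSPD1, BAG2 and CCT2, and single libraries that stood apart, were chosen after they were seen. Alternatives used limma 3.58.1 on log2(FPKM + 1) and log2(FPKM + 0.1) and DESeq2 1.42.0, other scalings and filters, a replicate block, and each library left out; tables were made with Python 3.11.15, pandas 2.3.3 and matplotlib 3.10.9.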

Additional observations from a re-analysis of the deposited data

Results flagged for a closer look

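The lenvatinib change differed between the lines, by a direct test, for 8 of the 44 genes, and the values are PLC/PRF/5 minus Huh7 on the log2 scale with edgeR's adjusted p. HSPA13 differed by 1.06 (adjusted p = 8.60e-04), lower in all 3 treated Huh7 libraries and higher in all 3 treated PLC/PRF/5 libraries than in any control of the same line. CCT7 differed by 0.55 (1.49e-04), with the same arrangement of libraries. HSPA8 differed by -0.78 (0.00757), with the opposite arrangement. DNAJB2 differed by -0.70 (0.00173) and FKBP5 by 0.62 (0.00877), each called in 1 line alone. CCT4 differed by 0.25 (0.0164). HSP90AA1 differed by -0.41 (0.0373) and HSPB1 by -0.47 (0.0351), calls that did not hold under every setting. Groups of 3 were not tested for single libraries that stand apart.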

How the results depend on the processing

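Over the settings planned, 9 of 17 members called in Huh7 kept their call in every one, as did 5 of 10 in PLC/PRF/5, 6 of 8 in the difference and 25 of 28 under DMSO, and no called change reversed. Uncalled values had the other sign in 17 of 594 cases in Huh7, 19 of 748 in PLC/PRF/5, 44 of 756 in the difference and 7 of 352 under DMSO, and no direction is claimed for them. Fitting only the groups compared called 5 members higher in Huh7, and 11 higher and 2 lower in PLC/PRF/5. Library totals alone gave 10 and 1 in PLC/PRF/5, limma on log2(FPKM + 1) 11 and 1, limma on log2(FPKM + 0.1) 10 and 1, and no filter on low values 1 lower. All genes called higher in PLC/PRF/5 numbered 2257 with limma on log2(FPKM + 1), against 1405. In the difference, members called lower numbered 2 with library totals and with both limma fits, and 7 with DESeq2. With 1 library left out, members called in PLC/PRF/5 ranged from 4 to 10 higher and 1 to 6 lower, and those lower in the difference from 2 to 8; the cause was not tested. The replicate numbers did not pair the libraries (correlations of deviations from -0.0223 to 0.0437); with the replicate block, 7 members were called higher and 7 lower in Huh7, 6 and 3 in PLC/PRF/5, and all genes called numbered 3187 in Huh7, 2359 in PLC/PRF/5 and 1647 in the difference, against 3850, 3133 and 2243. Under other scalings the median of all genes moved by at most 0.07. The lowest member count in any library was 804, and each group has 3 libraries.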
